A study of Mus musculus with 384 samples.

Results

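Scgb1a1, Scgb3a2, Scgb3a1 and Cyp2f2, 4 genes that mark the secretory (club) cells of the airway, were followed through single cells sorted from mouse lung mesenchyme. They are 4 of the 23422 genes in the count table, all 4 are among the 22276 genes of the table of cells that passed the study's filter, and they were chosen by name with their levels in these wells known. Their own levels are therefore given as a description, without a test. The cells of the Lgr5 line came from 2 mice carrying Lgr5-CreERT2;R26-Tom, in which CreERT2 driven from the Lgr5 locus switches on a tdTomato reporter after tamoxifen, and those of the Lgr6 line from 2 Lgr6-EGFP-CreERT2 mice, in which EGFP is made from the Lgr6 locus. According to the labels, mice of 7 to 10 weeks served in most experiments. Lung cells lacking CD31, CD45, CD11b and TER119 were sorted as Tom+ cells (Lgr5 line) or GFP+ cells (Lgr6 line) into 96-well plates. An EpCAM antibody is listed among the stains, but the gate given for the single cells does not include it. There were 384 wells. Each mouse gave 95 single-cell wells, 380 in total, and 1 pooled well. The mouse is the replicate, so each line has 2. The labels do not name plates, so whether each plate held a single mouse is not known. Line, mouse and plate thus cannot be told apart.

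The 4 genes lie apart in the genome. In GENCODE M21 on GRCm38 (mm10), Scgb1a1 occupies chromosome 19 from 9083636 to 9087958 on the minus strand. Scgb3a2 occupies chromosome 18 from 43764289 to 43767399, Scgb3a1 chromosome 11 from 49663610 to 49665118, and Cyp2f2 chromosome 7 from 27119909 to 27133660, all on the plus strand. Epcam occupies chromosome 17 from 87635979 to 87651129. All are protein-coding genes.

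Club cells line the small airways of the mouse lung, secrete into the airway lumen, detoxify inhaled compounds and act as progenitors for themselves and for ciliated cells. Scgb1a1 encodes the main secreted club cell protein (CCSP), and Scgb3a2 and Scgb3a1 encode other members of the same secretoglobin family. Cyp2f2 encodes the cytochrome P450 that activates naphthalene, the compound used to injure club cells. Epcam encodes a cell surface adhesion molecule of epithelial cells that mesenchymal cells lack.

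Because the members are read below as genes that occur in the same wells, the stretches just before the start of Cyp2f2 and Scgb3a1 are shown, as RefSeq gives them for GRCm38.p6, 5′ to 3′ on the plus strand. Capitals mark matches, on either strand, to a forkhead motif (TGTTTNC) or an NKX2-1 motif (CACTNNAG), factors known from airway epithelium. The window of Cyp2f2 is chr7:27119705-27119908 (204 bases) and that of Scgb3a1 is chr11:49663345-49663594 (250 bases).
Cyp2f2: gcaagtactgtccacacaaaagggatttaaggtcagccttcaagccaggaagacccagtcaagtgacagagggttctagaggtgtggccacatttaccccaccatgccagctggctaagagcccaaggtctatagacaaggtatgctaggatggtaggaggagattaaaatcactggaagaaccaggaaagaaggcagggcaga
Scgb3a1: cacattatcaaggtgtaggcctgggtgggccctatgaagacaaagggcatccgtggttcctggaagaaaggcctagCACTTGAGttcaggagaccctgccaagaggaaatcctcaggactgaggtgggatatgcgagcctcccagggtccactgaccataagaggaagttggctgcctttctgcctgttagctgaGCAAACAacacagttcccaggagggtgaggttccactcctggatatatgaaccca
The Scgb3a1 window held 1 match to each of these motifs, and the Cyp2f2 window held neither. Neither window held the C/EBP motif TTGCNNAA or the letters TATAAA. Of 32851 RefSeq promoters, 17.8% held the forkhead motif, 12.9% the NKX2-1 motif, 9.56% the C/EBP motif and 12.4% TATAAA in the 250 bases before the start.

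Of the 95 single cells of each mouse, the study kept 29 (Lgr5 mouse 1), 28 (Lgr5 mouse 2), 50 (Lgr6 mouse 1) and 75 (Lgr6 mouse 2), and these are called kept cells here. Its filter asks, among other criteria, for at least 2000 genes, a tdTomato level above 32 TPM (transcripts scaled to the same total in every well) and less than 1 TPM of Ptprc (CD45) and of Pecam1 (CD31). The median kept cell had 263129 and 272729 counts in the Lgr5 line (mice 1 and 2), and 332588 and 1537590 in the Lgr6 line. The libraries carry no molecular identifiers. A count is thus an amplified read, and the intervals given below take in counting error alone. No wells had identical counts. A gene is called detected in a well where its count is above 0.

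Scgb1a1 was the most widely detected member in the kept cells and was detected more often in the Lgr5 line. In Lgr5 mouse 1 it was found in 12 of 29 cells (41.4%, with an exact 95% binomial interval of 23.5 to 61.1% by Clopper-Pearson) and in 10 of 28 cells of Lgr5 mouse 2 (35.7%, 18.6 to 55.9%). In Lgr6 mouse 1 it was detected in 7 of 50 cells (14%, 5.82 to 26.7%), and in Lgr6 mouse 2 in 4 of 75 cells (5.33%, 1.47 to 13.1%). Both Lgr5 mice lay above both Lgr6 mice, with a mean over mice of 38.5% ± 4.01 (SD, n = 2) against 9.67% ± 6.13 (SD, n = 2). The order of the mice was the same at equal depth, since after thinning every cell to 99000 reads (1, 3, 13 and 2 cells were too shallow), the shares were 39.3%, 32%, 10.8% and 5.48%.

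**Figure D1:**
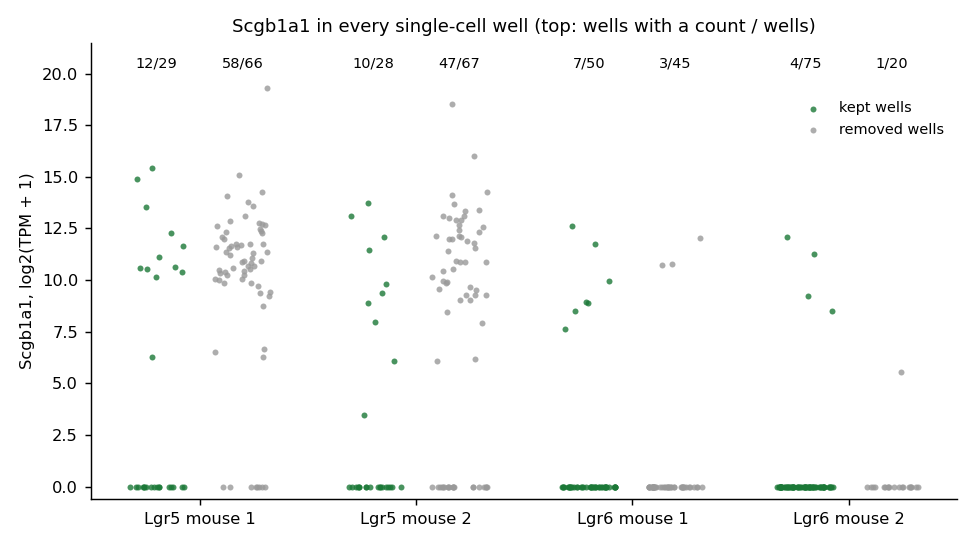
Scgb1a1 level in log2(TPM + 1) on the y axis for every single-cell well, by mouse on the x axis, with kept wells in green and removed wells in grey. The numbers on top give wells with a count over all wells: removed wells of the Lgr5 mice hold the gene in 58 of 66 and 47 of 67, and the highest well, at 19.28, is a removed well of Lgr5 mouse 1.

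Where Scgb1a1 was detected, its level rested on few counts in part of the cells. In log2(TPM + 1), 1 count gave 7.65 in a cell of Lgr6 mouse 1. In a cell of Lgr5 mouse 2, 1 count gave 6.07, and 3 counts gave 9.95 in another cell of Lgr6 mouse 1. The level in detected kept cells, in log2(TPM + 1), ranged from 6.28 to 15.43 with a median of 10.87 in Lgr5 mouse 1, and from 3.49 to 13.73 with a median of 9.59 in Lgr5 mouse 2. In Lgr6 mouse 1 it ranged from 7.65 to 12.61 (median 8.91), and in Lgr6 mouse 2 from 8.52 to 12.10 (median 10.23). These ranges overlap between the lines. Over all kept cells, zeros included, the mean log2(TPM + 1) of Scgb1a1 was 4.08 ± 0.93 (SD, n = 2 mice) in the Lgr5 line and 0.96 ± 0.58 in the Lgr6 line. The summed counts of the Lgr5 line came to 4809 (mouse 1) and 2000 (mouse 2), and those of the Lgr6 line to 278 and 2901. Relative to all counts of the kept cells, scaled as CPM (the count that a gene would have at a fixed common total), this is 487 and 151.5 against 9.63 and 23.3. Few cells carry these sums, since 1 cell held 70.1% of them in Lgr5 mouse 1 and 1 cell held 72.4% in Lgr5 mouse 2. Over all kept cells the 3 highest cells held 61.7% of 9988 counts, and 7 of the 33 positive cells had fewer than 10 counts.

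The other 3 members were rare in the kept cells. Scgb3a2 was detected in 1 cell of each Lgr5 mouse (32 and 46 counts) and in 0 of 50 and 0 of 75 Lgr6 cells. Taken as 3 cells of the total, these allow shares of up to 6% and 4%. The intervals in the plot of shares are exact binomial ones and reach higher. Scgb3a1 was detected in 1 cell, of Lgr6 mouse 2, at a level of 8.43 on the log2(TPM + 1) scale. It was detected in 0 of 29 and 0 of 28 Lgr5 cells, which allow shares of up to 10.3% and 10.7%. Cyp2f2 was detected in 4 of 29 cells (13.8%) of Lgr5 mouse 1 and 4 of 28 (14.3%) of Lgr5 mouse 2. In Lgr6 mouse 1 it was found in 1 of 50 (2%) and in Lgr6 mouse 2 in 1 of 75 (1.33%). The single Lgr6 cells held only 3 and 6 counts of Cyp2f2. In the sums Cyp2f2 reached 37.4 and 463 CPM in Lgr5 mice 1 and 2, against 0.10 and 0.05 CPM in Lgr6 mice 1 and 2, but 1 cell gave 6084 of the 6116 counts of Lgr5 mouse 2. No kept cell held all 4 members, 2 held 3, 5 held 2, 30 held 1 and the remaining cells held none.

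**Figure D2:**
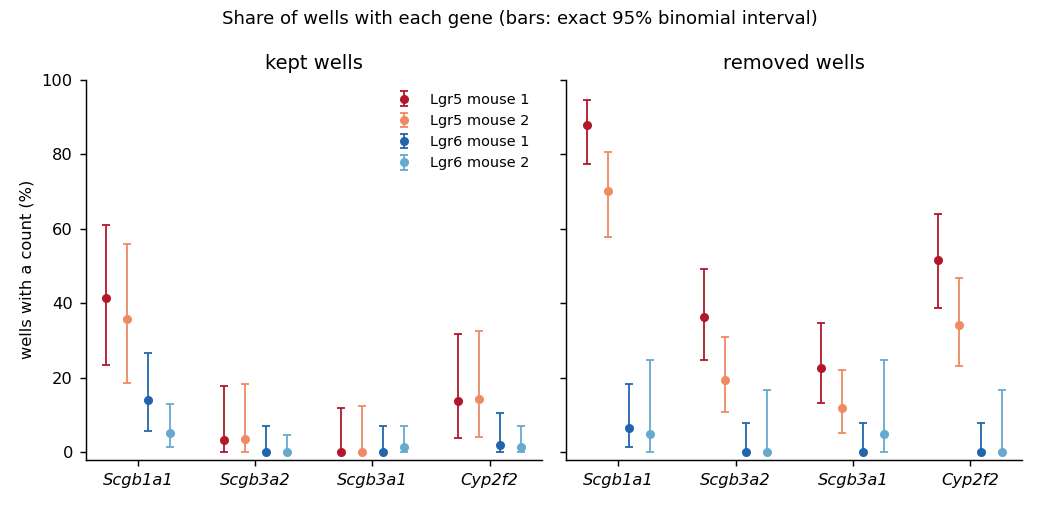
Share of wells with a count of each gene (y axis, percent) for each mouse, in kept wells (left) and removed wells (right). Bars are exact 95% binomial intervals, and in both panels the Lgr5 mice lie above the Lgr6 mice for Scgb1a1, Scgb3a2 and Cyp2f2, while Scgb3a1 was not detected in kept cells of the Lgr5 mice.

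Epcam was followed in the same way, since it marks epithelial cells. It was found in 7 of 29 kept cells (24.1%) of Lgr5 mouse 1, 8 of 28 (28.6%) of Lgr5 mouse 2, 3 of 50 (6%) of Lgr6 mouse 1 and 4 of 75 (5.33%) of Lgr6 mouse 2. Of the 22 kept cells with Epcam, 10 also held Scgb1a1 (45.5%). Of the 160 kept cells without it, 23 held Scgb1a1 (14.4%).

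The 33 kept cells with Scgb1a1 fell apart by Epcam, as the map of these cells shows. All 23 without Epcam carried Col1a1, which encodes collagen I and is made by mesenchymal cells, while 3 of the 10 with Epcam did. Krt8, a keratin of simple epithelia, was detected in 10 of the 10 with Epcam and in 9 of the 23 without. Cdh1, which encodes E-cadherin, was detected in 8 of 10 and 3 of 23. Sftpc, the surfactant protein C gene of alveolar type II cells, exceeded 15 on the log2(TPM + 1) scale in 6 of the 10 with Epcam and in 1 of the 23 without. Scgb1a1 itself had a median of 9.52 in the 10 cells with Epcam (range 6.07 to 13.09) and of 10.57 in the 23 cells without (range 3.49 to 15.43), so the level of Scgb1a1 did not separate them. Col1a1 is common in kept cells in any case: it was detected in 92.7% of the kept cells with neither Scgb1a1 nor Epcam.

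**Figure D3:**
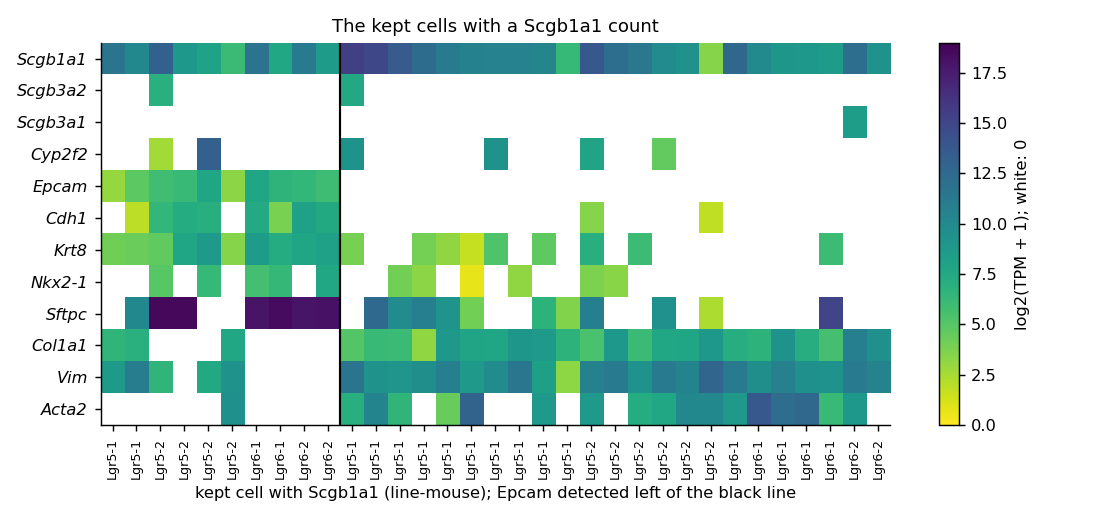
Level in log2(TPM + 1), by colour, of 12 genes (rows) in each of the 33 kept cells with a Scgb1a1 count (columns, labelled by line and mouse), with white for 0. The 10 cells left of the black line held Epcam and the 23 to the right did not. The cells on the right all hold Col1a1, and those with Sftpc above 15 sit, with 1 exception, on the left.

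Cells with the mesenchymal transcript and no Epcam held Scgb1a1 in every mouse. Among kept cells with Col1a1 and without Epcam, Scgb1a1 was detected in 10 of 20 (median 295147 counts) and 6 of 19 (median 223452 counts) in the Lgr5 mice, in Lgr5 mice 1 and 2, and in 5 of 44 and 2 of 67 in Lgr6 mice 1 and 2. kept cells with Epcam it was detected in 2 of 7 (median 263129 counts), 4 of 8 (median 272729 counts), 2 of 3 and 2 of 4. In Lgr5 mouse 1 the share was thus higher in the Col1a1 cells without Epcam (50%) than in the Epcam cells (28.6%), whereas in the other 3 mice it was lower. Whether the Scgb1a1 reads of cells with Col1a1 were transcribed in those cells was not tested.

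Single cells show how varied the company of Scgb1a1 was. The kept cell with most Scgb1a1, of Lgr5 mouse 1, had 3370 counts with 32 of Scgb3a2 and 255 of Cyp2f2, but 0 of Epcam, 1397 of Vim and 38 of Col1a1. Vim encodes vimentin, an intermediate filament of mesenchymal cells. A cell of Lgr5 mouse 2 with 1448 counts of Scgb1a1 held 46 of Scgb3a2, 6 of Cyp2f2, 58 of Epcam and 121617 of Sftpc. Another cell of that mouse held 28 counts of Scgb1a1 beside 6084 of Cyp2f2, 231 of Cdh1, 0 of Sftpc and 0 of Col1a1, and Epcam at 7.75 on the log2(TPM + 1) scale. It also held 226 counts of Foxj1, a transcription factor of ciliated cells, and 4501 of Sec14l3, a gene of ciliated cells. It was the only kept cell in which another member exceeded Scgb1a1 in TPM where Scgb1a1 was detected (Cyp2f2 13.19 against Scgb1a1 7.97 on the log2(TPM + 1) scale). The cell with Scgb3a1, of Lgr6 mouse 2, had 1243 counts of Scgb1a1, 0 of Epcam and 7729 of Col1a1.

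Whether cells with Scgb1a1 carried the other genes more often than cells without was asked within each mouse. Scgb3a2 was detected in 1 of 12 and 1 of 10 cells with Scgb1a1 in Lgr5 mice 1 and 2, and in no cell without Scgb1a1 in any mouse. In these mice the exact binomial intervals for 0 of 17 and 0 of 18 cells without Scgb1a1 reach 19.5% and 18.5%. They take in the shares with Scgb1a1, 8.33% and 10%. Pooled over the 4 mice the limit is 2.01%, but most of those cells were of the Lgr6 line, where no kept cell held Scgb3a2. Cyp2f2 was detected in 2 of 12 cells with Scgb1a1 against 2 of 17 without in Lgr5 mouse 1, and in 4 of 10 against 0 of 18 in Lgr5 mouse 2. In the Lgr6 mice Cyp2f2 was detected in 0 of 7 against 1 of 43 and in 0 of 4 against 1 of 71. Over the 4 mice the share of cells with Cyp2f2 was 10.3 percentage points higher with Scgb1a1 (SD 20.06, n = 4 mice, higher in 2). For Scgb3a2 the difference was 4.58 points (SD 5.34, n = 4, higher in 2), and for Scgb3a1 6.25 points (SD 12.5, n = 4, higher in 1). Each of these 3 differences was smaller than its SD over the mice.

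Epcam was detected in 2 of 12 cells with Scgb1a1 against 5 of 17 without in Lgr5 mouse 1, the mouse in which the order turned. It was detected in 4 of 10 against 4 of 18 in Lgr5 mouse 2, in 2 of 7 against 1 of 43 in Lgr6 mouse 1 and in 2 of 4 against 2 of 71 in Lgr6 mouse 2. The mean difference was 19.6 percentage points (SD 24.9, n = 4 mice, higher in 3, two-sided exact permutation p = 0.25), and the smallest p that the signs of 4 mice can give is 0.13. Over all single-cell wells, removed ones included, Epcam was more frequent with Scgb1a1 in 4 of 4 mice, by 32.7 points (SD 17.3, n = 4, exact permutation p = 0.13). In the same wells Cyp2f2 was detected in 36 of 70 with Scgb1a1 against 2 of 25 without in Lgr5 mouse 1, and in 27 of 57 against 0 of 38 in Lgr5 mouse 2. Depth moves with these shares in the removed wells, where Lgr5 wells without Scgb1a1 had medians of 569 and 38 counts against 292681 and 209217 with it, and its part in the result was not tested.

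**Figure D4:**
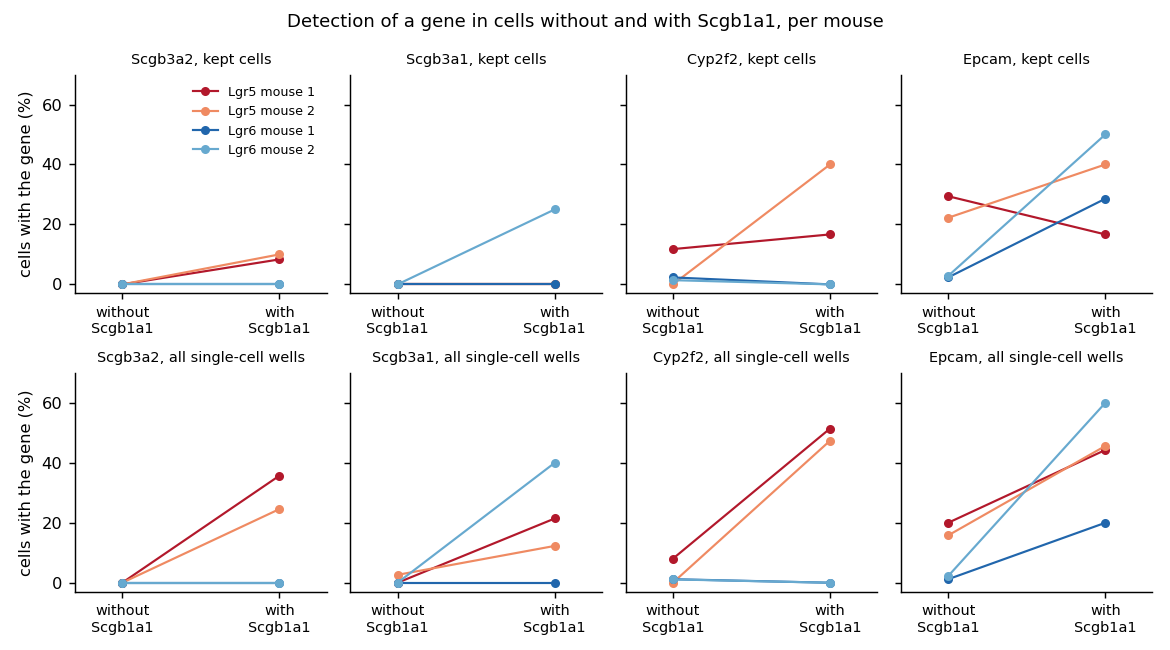
Share of cells with Scgb3a2, Scgb3a1, Cyp2f2 or Epcam (y axis, percent) among cells without and with Scgb1a1 (x axis), 1 line per mouse, in kept cells (top) and in all single-cell wells (bottom). In the kept cells Epcam falls in Lgr5 mouse 1 and is higher with Scgb1a1 in the other 3 mice, and Cyp2f2 is higher in both Lgr5 mice and at 0% with Scgb1a1 in both Lgr6 mice.

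Across all genes, the sums of cells with and without Scgb1a1 were compared within mouse. Of 10904 genes tested besides Scgb1a1, edgeR (quasi-likelihood F test, Benjamini-Hochberg adjusted p under 0.05) called 0 (0.0%), 369 had an unadjusted p under 0.05, and DESeq2 called 456. Scgb3a2, Scgb3a1 and Cyp2f2 did not reach the minimum count for the test. Over the kept cells, Scgb3a2 had 78 counts in cells with Scgb1a1 and 0 in cells without, and Cyp2f2 had 6470 and 24. Epcam had 822 counts with and 2117 without Scgb1a1, and a log2 fold change within mouse of 2.61 (standard error 2.27, edgeR adjusted p = 1), which was 0.08 in the Lgr5 mice alone.

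Groups of genes known in the lung epithelium were described in the same comparison, from lists that were drawn up with earlier results of these data known. General epithelial genes lay higher with Scgb1a1 in 13 of 13 tested in the fit over mice. Their median log2 fold change was 3.23 beside -0.38 over all genes tested, and edgeR called 0 of them. Several turned in Lgr5 mouse 1, where Krt8 stood at 7.30 CPM with Scgb1a1 against 96.1 without, and Krt18 at 12.4 against 57.97. Krt7, Cldn3 and Epcam were also lower with Scgb1a1 in that mouse. Cdh1, Krt19, Cldn18 and Ehf were higher in 4 of 4 mice. Shares of cells are given per line, since 22 of the 33 cells with Scgb1a1, but only 35 of the cells without, were of the Lgr5 line. Krt8 was detected in 14 of 22 Lgr5 cells with Scgb1a1 and 18 of 35 without (63.6% and 51.4%), and in 45.5% and 6.14% of Lgr6 cells. Krt18, its partner keratin, was detected in 77.3% and 57.1% of Lgr5 cells and 45.5% and 9.65% of Lgr6 cells. Those that DESeq2 called higher included Cdh1 and Spint2, a protease inhibitor gene, where it called 1.56% of all genes higher. Alveolar type II genes lay higher in 11 of 11 tested in the fit over mice (median 4.01, edgeR called 0, DESeq2 called 3). Sftpc was higher in 3 mice but turned in Lgr5 mouse 1, at 150 CPM with Scgb1a1 against 73711 without. There 1 kept cell held 99.9% of the Sftpc counts. Lyz2 of this list turned in that mouse too (61.2 against 7083 CPM), while Lamp3 was higher in 4 of 4 mice. Sftpc was detected in 13 of 22 Lgr5 cells with Scgb1a1 and 9 of 35 without (59.1% and 25.7%), and in 45.5% and 28.9% of Lgr6 cells. Sftpa1, the surfactant protein A gene, was detected in 11 of 22 and 4 of 35 Lgr5 cells, and in 54.5% and 21.9% of Lgr6 cells.

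Genes of club and airway secretory cells other than the members were mostly too low to test. Of 18 listed, 5 were tested, 4 of them lay higher (median 0.58), edgeR called 0 and DESeq2 called Hp, the haptoglobin gene. Cbr2, a carbonyl reductase gene abundant in mouse lung, was detected in 10 of 22 Lgr5 cells with Scgb1a1 and 1 of 35 without, and in 54.5% and 5.26% of Lgr6 cells. Hp was detected in 7 of 22 and 1 of 35 Lgr5 cells, and in 36.4% and 6.14% of Lgr6 cells. In the sums Cbr2 turned in Lgr5 mouse 1, at 28.1 CPM with Scgb1a1 against 957 without, and Hp was level there (64.6 against 65.1). Cckar of this list was in 95.5% and 71.4% of Lgr5 cells but in 54.5% and 65.8% of Lgr6 cells. Of 10 xenobiotic metabolism genes tested, 4 lay higher (median -0.15) and edgeR called 0. DESeq2 called Cyp2b10 and Ugt1a6a higher. Gstm1, a glutathione S-transferase gene and the highest of this list, was detected in 90.9% and 94.3% of Lgr5 cells and 81.8% and 91.2% of Lgr6 cells. Of 5 transcription factors of airway secretory cells tested, 4 lay higher (median 2.48), edgeR called 0 and DESeq2 called Grhl2. Nkx2-1, the lung epithelial lineage factor, was detected in 40.9% and 22.9% of Lgr5 cells and 27.3% and 25.4% of Lgr6 cells.

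Markers of other cell types gave no edgeR calls either. Of 13 mesenchymal genes 1 lay higher with Scgb1a1, at a median of -0.33 beside -0.38 over all genes tested. With DESeq2 5 of the 13 lay higher, at a median of -0.27 beside -0.26. Vim was detected in 95.5% of Lgr5 cells with Scgb1a1 and 97.1% without, and in 63.6% and 90.4% of Lgr6 cells. Col1a1 was detected in 86.4% and 85.7% of Lgr5 cells and 63.6% and 91.2% of Lgr6 cells. DESeq2 called Lgr5 and Lgr6 lower, where it called 2.62% of all genes lower. Of 3 ciliated genes tested 2 lay higher (median 1.01), of 5 alveolar type I genes 4 did (median 1.05, DESeq2 called Aqp5), and the 1 basal gene tested lay lower (-2.79). Of the blood and endothelial lists 1 gene each was tested and lay lower in the sums (DESeq2 called the endothelial gene, Kdr). In the cells with Scgb1a1, 1 of 33 held Ptprc and 4 held Kdr. Detection of Kdr went the other way in the Lgr5 line, at 18.2% of cells with Scgb1a1 and 2.86% without. In Lgr6 cells it was 0% and 1.75%. Egfl7, an endothelial gene that was not tested, was detected in 18.2% and 0% of Lgr5 cells and in no Lgr6 cell. Itgam, the gene of CD11b, was found in 90.9% and 74.3% of Lgr5 cells and 63.6% and 69.3% of Lgr6 cells. Of 2 erythroid genes tested 1 lay higher, and Hbb-bh1, a beta globin gene, was detected in 21 of 22 Lgr5 cells with Scgb1a1 and 34 of 35 without, and in 1 and 0 Lgr6 cells. The part of these genes in the comparison was not tested.

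The genes most like Scgb1a1 across kept cells were ranked by the correlation of log2(TPM + 1), centred on each mouse's mean, among 12427 genes detected in at least 10 kept cells. Cbr2 ranked first (r = 0.48), before Aacs (0.41), Sftpa1 (0.41), Ly6e (0.40), Hp (0.40), Nedd4l (0.40), Rfc2 (0.39) and Wfdc2 (0.38). Sftpc ranked 12th at 0.38, Cyp2f2 170th at 0.27 and Epcam 488th at 0.21, while Scgb3a2 and Scgb3a1 were in too few cells to be ranked. Within single mice the correlation of Cyp2f2 with Scgb1a1 was 0.23, 0.49, -0.06 and -0.03. The points are cells of 4 mice with many zeros, and the values are a description without a test. Of 18 other secretoglobin genes listed, 9 were detected in a kept cell, Scgb2b23-ps in 13, Scgb1c1 in 8, Scgb2b19 in 6, Scgb1b3 and Scgb2b20 in 2 each, and Scgb1b20, Scgb1b30, Scgb2b24 and Scgb2b7 in 1 each. Near-identical copies in this family can share reads, so single counts among them are uncertain.

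Between the lines, 14086 genes were tested on the sums per mouse, edgeR called 0 at the same threshold (0.0%), 1312 had an unadjusted p under 0.05, and DESeq2 called 567. On these sums Scgb1a1 had a log2 fold change, Lgr5 over Lgr6, of 4.17 (standard error 0.81), given without a test. Epcam stood at 17.01 and 28.3 CPM in Lgr5 mice 1 and 2, and at 2.53 and 18.6 CPM in Lgr6 mice 1 and 2. Its log2 fold change was 1.03 with a standard error of 1.31 (edgeR adjusted p = 0.858), and it was 0.23 without Lgr6 mouse 1 and 3.08 without Lgr6 mouse 2.

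In the Lgr5 line all 4 members were detected in a larger share of the wells that the filter removed than of the kept cells. Scgb1a1 was detected in 58 of 66 removed wells of Lgr5 mouse 1 (87.9%) and 47 of 67 of Lgr5 mouse 2 (70.1%), against 3 of 45 and 1 of 20 in the Lgr6 mice. Of removed Lgr5 wells with at least 2000 genes, 91.2% held Scgb1a1, against 38.6% of the 57 kept cells of that line. With wells thinned to 99000 reads the shares were 85 of 95 (89.5%) and 19 of 53 (35.8%), so the gap was as large at equal depth. The removed wells held more genes, with a median of 7236 against 4051. In the wells that held it, the median level of Scgb1a1 was 11.27 in removed wells and 10.87 in kept cells of Lgr5 mouse 1, and 11.56 and 9.59 in those of Lgr5 mouse 2.

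The other members followed. Scgb3a2 was detected in 24 and 13 removed wells of the Lgr5 mice (36.4% and 19.4%), Scgb3a1 in 15 and 8 (22.7% and 11.9%) and Cyp2f2 in 34 and 23 (51.5% and 34.3%). Summed counts of Cyp2f2 did not follow detection in Lgr5 mouse 2, where kept cells held 6116, nearly all in 1 cell, and removed wells 498. In the removed Lgr6 wells only Scgb1a1 (21 counts in 4 wells) and Scgb3a1 (1 count) were found. Each of the 37 removed wells with Scgb3a2 and each of the 57 with Cyp2f2 also held Scgb1a1, as did 23 of the 24 with Scgb3a1. Most removed Lgr5 wells held Scgb1a1 in any case, 91.2% of those with at least 2000 genes. Removed Lgr5 wells without it had medians of 569 and 38 counts in mice 1 and 2. Epcam was detected in 47.7% of the removed wells with Scgb1a1, nearly all of them Lgr5 wells, and in 2 of the 89 without. Most of those 89 were Lgr6 wells, none of which held Epcam. The others were the 28 Lgr5 wells with the low medians just given. Line and depth thus both differ between the wells with and without Scgb1a1, and their part in this contrast was not tested. All 4 members were found together in 9 wells, 6 of Lgr5 mouse 1 and 3 of Lgr5 mouse 2. These 9 wells had at least 8543 genes (median 10649), all 9 held at least 1 TPM of Ptprc, 8 held as much of Pecam1 and 8 held Epcam.

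Blood and endothelial markers moved with the members in these wells. Of 54 removed Lgr5 wells with both Ptprc and Pecam1 at 1 TPM or more, 54 held Scgb1a1, 41 Cyp2f2, 24 Scgb3a2 and 16 Scgb3a1, with a median of 9997 genes. Of 18 wells with Ptprc alone 15 held Scgb1a1 and 4 Cyp2f2, and of 29 with Pecam1 alone 26 and 6 did, with medians of 6180 and 6431 genes. Of 32 removed Lgr5 wells with neither, which had a median of 629 genes, 10 held Scgb1a1 and 6 Cyp2f2. Sftpc was found in 94.5% of the removed wells with Scgb1a1. The part of these markers and of the gene number in the detection of the members was not tested.

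A removed well of Lgr5 mouse 1 held most of the Scgb1a1 counts. It had 393709 counts of Scgb1a1, which is 26.7% of its 1474116 reads and 91.6% of all Scgb1a1 counts in the 380 single-cell wells. Its level of 19.28 on the log2(TPM + 1) scale is 14.4 times the TPM of the highest kept cell. A removed well of Lgr5 mouse 2 came near it in level, at 18.53, with 6620 counts. The well of Lgr5 mouse 1 also held 21865 counts of Cyp2f2, 1218 of Scgb3a2, 0 of Scgb3a1 and 274 of Epcam. Beside these it had 14675 of Cbr2, 7734 of Hp, 36 of Col1a1 and 43 of Sftpc. Ptprc and Pecam1 were at 0 counts, tdTomato was at 31.9 TPM, and Foxj1 had 502 counts. Its 11223 genes ranked 20th among the single-cell wells.

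The proportions of the members could be set against that well. It held 55.5 counts of Cyp2f2 and 3.09 of Scgb3a2 for each 1000 of Scgb1a1. The other removed wells of Lgr5 mouse 1 held 73.9 and 17.5, and its kept cells 76.7 and 6.65. The removed wells of Lgr5 mouse 2 held 34.2 and 11.3, and its kept cells 16.2 and 23.3 once the cell with 6084 counts of Cyp2f2 was left out, or 3058 and 23 with it. Scgb3a1 was at 0 in the highest well but at 13.02 for each 1000 in the other removed wells of that mouse and at 13.2 in those of Lgr5 mouse 2.

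Detection of the other members followed the level of Scgb1a1 in Lgr5 wells over part of its range. Of 63 wells without Scgb1a1, 2 held Cyp2f2 and 0 Scgb3a2, but 28 of these were removed wells, with medians of 569 and 38 counts in mice 1 and 2. Of 32 wells with a level of up to 10, 8 held Cyp2f2 and 2 Scgb3a2. Between 10 and 12, 27 and 19 of 51 wells did, and between 12 and 14, 21 and 14 of 34. Between 14 and 16, 4 and 1 of 7 wells did, and the 3 wells above 16 all held both genes and Epcam. The step at a level of 10 came from the removed wells, where Cyp2f2 went from 6 of 25 to 26 of 43 wells. Removed Lgr5 wells with at least 2000 genes held a median of 7236 genes against 4051 in kept cells. The part of gene number and depth in these steps was not tested. In kept Lgr5 cells Cyp2f2 was found in 2 of 7 cells up to a level of 10 and in 1 of 8 between 10 and 12, and Scgb3a2 in none of either. No such step was seen in the Lgr6 line, where 0 of 15 wells with Scgb1a1 held Cyp2f2 or Scgb3a2.

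**Figure D5:**
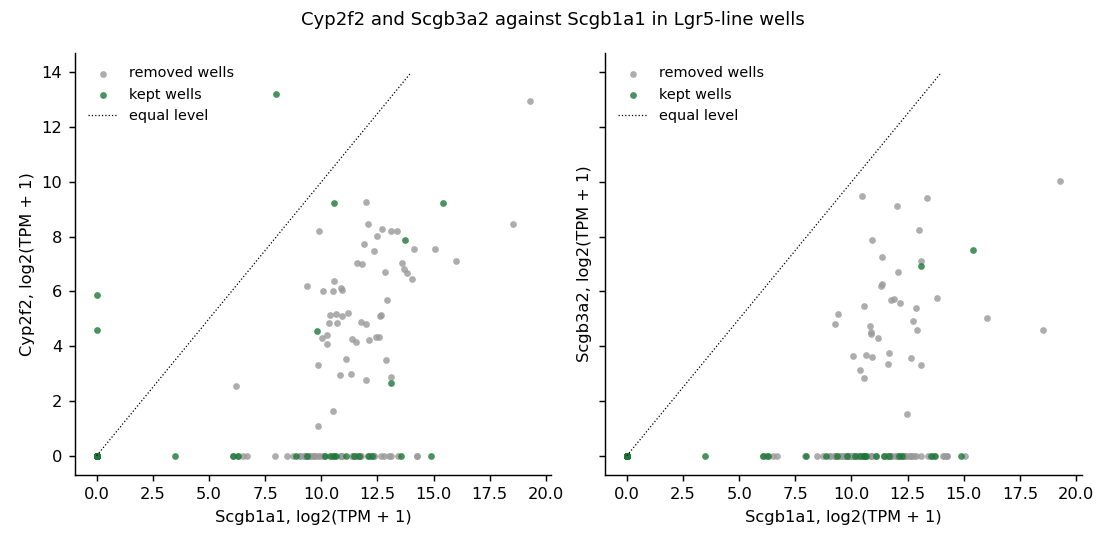
Level of Cyp2f2 (left) and Scgb3a2 (right) against that of Scgb1a1 in all single-cell wells of the Lgr5 line, each point a well, in log2(TPM + 1) on both axes, with kept wells in green and removed wells in grey. Most wells with either gene lie right of a Scgb1a1 level of 10 and under the dotted line of equal level, and 3 kept wells lie above it for Cyp2f2, 1 at 13.19 for Cyp2f2 and 7.97 for Scgb1a1 and 2 with no Scgb1a1.

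Of the 4 pools, 2 held Scgb1a1. The pool of Lgr5 mouse 1 had 91 counts of Scgb1a1 among 353310 (10.88 on the log2(TPM + 1) scale) and 8 of Epcam, and that of Lgr6 mouse 1 had 16 of Scgb1a1 (10.85) and 3 of Cyp2f2 among 66586. The pools of Lgr5 mouse 2 and Lgr6 mouse 2 had 0 counts of all 4 members among 204948 and 2203576.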

How the data were processed

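The authors pseudo-aligned 38 bp paired reads to the mm10 transcriptome with kallisto 0.43.0 (k = 31, version per the labels' processing notes) and deposited counts per gene for all 384 wells. Tables of log2(TPM + 1), 1 of every well and 1 of the cells that the study kept, were deposited too. The annotation release is not given in the sources used here. Counts scaled to a common depth were not used. The 4 members, the gene lists and the tests were chosen with earlier results of these data known.

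For each mouse the counts of its kept cells were added up, whole or split by Scgb1a1 status, and tested with edgeR 4.0.16 in R 4.3.3 (TMM, filterByExpr with a minimum count of 10, quasi-likelihood F test, mouse as a block for status, at least 3 cells a side). Scripts were tested on simulated data. The share of cells with Epcam was compared by exact sign-flip permutation over mice, and shares of the members were described. Named genes were the members and Epcam, up to 4 genes of each list with the largest mean level in cells with Scgb1a1, and the 8 nearest by correlation. List genes that DESeq2 called, Foxj1, Pecam1 and tdTomato were named after their values were seen. Alternatives were DESeq2 1.42.0, library size, no filter, other cutoffs, all single-cell wells, thinning to 99000 reads and each mouse left out. Chosen after seeing the data were the fits without the well with most Scgb1a1, the fit in Lgr5 mice alone, and leaving mice out of the description of levels.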

Additional observations from a re-analysis of the deposited data

Results flagged for a closer look

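Counts of the members were found in wells outside the tests. Removed Lgr5 wells held 419726 counts of Scgb1a1, 23209 of Cyp2f2, 1583 of Scgb3a2 and 341 of Scgb3a1, and removed Lgr6 wells held 21 of Scgb1a1, all above the 3 counts that a count of 0 allows. The pools of Lgr5 mouse 1 and Lgr6 mouse 1 held 91 and 16 counts of Scgb1a1.

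The share of kept cells with Cyp2f2 lay higher with Scgb1a1 in both Lgr5 mice, by 4.90 and 40 percentage points, and lower in both Lgr6 mice, by -2.33 and -1.41 points. The Lgr6 values rest on 1 cell each, with 3 and 6 counts, and the difference between the lines was not tested.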

How the results depend on the processing

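By Scgb1a1 status edgeR called 0 genes under every alternative run, each mouse left out included (0 to 0%), and DESeq2 called 4.18% (456 of 10904). Between the lines edgeR called 0 of 14086, DESeq2 4.03% (567), edgeR with no filter on low counts 2.07% (408 of 19715), edgeR over all single-cell wells 0.738% of 17743, and edgeR with a mouse left out 0 to 0.217% (34 genes without Lgr6 mouse 1, 7 without Lgr6 mouse 2). Where 1 mouse of a line was left, it is assumed to vary like the others. The mouse number as a replicate block gave 0 calls, and the difference between mice 1 and 2 correlated by 0.04 between the lines over 14086 genes. Whether mice of the same number shared a plate or a day is not given by the labels and was not tested. The status comparison also called 0 genes with no replicate block.

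The excess of the Scgb1a1 share in the Lgr5 line, 28.9 points in kept cells, was 58.9 points over all single-cell wells and 58.8 without the well with most Scgb1a1 (24.5 to 33.2 with a mouse left out). Its excess in mean log2(TPM + 1), 3.13, was 6.70 and 6.64 in those wells, 4.09 as log2(CPM + 1) of the sums, and 2.47 to 3.78 with a mouse left out. For Scgb3a1 the direction turned: the share was -0.67 points in kept cells and 11.1 over all single-cell wells (11.1 without that well), and the mean level -0.06 against 0.71 (0.71 without it). The share differences with Scgb1a1 kept their direction for Scgb3a2, Cyp2f2 and Epcam. With a mouse left out they ran from 2.78 to 6.11, 0.39 to 14.5 and 10.4 to 30.4 points, in that order. For Scgb3a1 they ran from 0 to 8.33 points, as only 1 kept cell, of Lgr6 mouse 2, held that gene. The Cyp2f2 value of 0.39 is without Lgr5 mouse 2, and the Scgb3a1 value of 0 without Lgr6 mouse 2. The cause of these changes was not tested.

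With 2 mice a line and 4 to 12 positive cells a mouse, depth and cell number limit every share, and a gene not detected in a cell is not shown to be absent from it.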
